A study of Mus musculus with 6 samples.

Results

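A set of 9 genes of the mesenchymal cytoskeleton and extracellular matrix, Fn1, Vim, Lgals1, S100a4, Acta2, Tagln, Sparc, Postn and Ncam1, was followed in mouse embryonic stem cells as they differentiated with and without forced expression of miR-200c and miR-141. They were taken by name from the 18193 genes that had a probe set with 1 gene symbol, and their 23 probe sets were used. Where a gene had several probe sets, the brightest on average stood for it and the others served as a check. Of the 9, 8 passed the filter on low values and were tested among 9997 genes, and S100a4 did not.

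All samples were A2.miR200c cells, a line made from A2lox embryonic stem cells in which a doxycycline-inducible promoter drives the genomic miR-200c and miR-141 cluster. The cells had been kept on irradiated embryonic fibroblasts, were passaged once without them, and were then grown as embryoid bodies in 10% serum. The 3 induced samples received doxycycline at 500 ng/mL from day 2, replenished on day 4, so the day 3 sample had the first addition only, and the 3 untreated samples received none. RNA was taken on days 3, 4 and 5, with 1 array for each treatment and day. No array held a doxycycline-treated line without the cluster, so doxycycline and the microRNAs cannot be told apart, and within a day there was no replicate.

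When cells pass from an epithelial to a mesenchymal state they give up cell-cell junctions, exchange keratin filaments for vimentin and deposit a fibronectin-rich matrix. Gastrulation is the setting in which the embryo first uses this transition, and differentiating embryonic stem cells pass through a comparable stage as mesoderm forms. The miR-200 family holds cells in the epithelial state, best known through its repression of Zeb1 and Zeb2, which are repressors of E-cadherin. The 9 genes encode matrix proteins, filaments, contractile proteins and an adhesion molecule, and whether each lies downstream of that choice was not tested.

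The mature products of the induced cluster are printed here because they are the treatment, with bases 2 to 8, the seed that selects targets, in capitals (RefSeq, GRCm38.p6, chr6:124718324-124718346 for miR-200c and chr6:124717917-124717938 for miR-141, both on the minus strand).
mmu-miR-200c-3p: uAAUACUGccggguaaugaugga
mmu-miR-141-3p: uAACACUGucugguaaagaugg
The seeds differ at 1 of their 7 bases, U4C from miR-200c to miR-141, counted from 1 at the 5′ end, so the induced cells received 2 different seeds.

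The arrays had like scales, with median intensities of 34.5 to 36.9 units and 48.8% to 50.1% of probe sets above a background of 36.8 units, set from odorant, pheromone and taste receptor genes that these cells should lack. Hprt, which lies beside the inducible locus in A2lox cells, had 1671, 2539 and 2977 units in induced cells and 234, 125 and 102 units in untreated cells on days 3, 4 and 5, so the labels of treatment held on every day. Zeb1 had 132, 196 and 169 units in induced cells, against 131, 256 and 403 units in untreated cells. Zeb2 had 24.8, 32.7 and 55.9 units in induced cells, against 43.7, 97.6 and 237 units in untreated cells. Hence both known miR-200 targets were lower in induced cells on days 4 and 5, Zeb1 by only 1.24-fold on day 4. Zeb2 was lower already on day 3, and was below background in induced cells on days 3 and 4.

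Of the 9 genes, 7 had their highest untreated intensity on day 5, and 7 of the 8 that were tested had signal on more than 1 array and rose between days 3 and 5. Postn, the other, passed the filter only through its untreated array of day 5, so its rise follows from the filter and is not counted. This was fitted with limma on log2(intensity + 50) as treatment plus day, so that the 2 treatments carry the spread and a p-value measures only how alike they were. By that test, with Benjamini-Hochberg adjustment at 0.05, 20.6% of all genes tested rose and 19.2% fell from day 3 to day 5. Between days 3 and 4, 4 of the 8 rose (Fn1, Vim, Lgals1 and Tagln), against 4.44% of all genes tested. From day 4 to day 5, 1 rose (Lgals1), against 3.80% of all genes tested. These counts for single steps depended on the fit. To day 4, Fn1 and Vim were not called without the intensity trend (adjusted p = 0.0660 and 0.0633), while Acta2 and Sparc were called without day 5 (adjusted p = 0.0129 and 0.00747). From day 4 to day 5, an added term for treatment by linear day called Fn1, Vim, Acta2, Sparc and Ncam1 as well as Lgals1 (adjusted p of 0.00574 to 0.0286 for the added ones), and also Postn (0.0403). Without day 3, Vim and Ncam1 were added (adjusted p = 0.0268 and 0.0407). In bulk RNA of this kind, fewer cells of a type and less RNA per cell cannot be told apart.

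The difference between treatments was smaller and took several forms. Averaged over the 3 days, none of the 8 was called (0 of 8, against 0% of all genes tested; 842 genes had an unadjusted p under 0.05 and the smallest adjusted p was 0.573). For 4 of the 8 there was an unadjusted p under 0.05, namely Vim, Lgals1 and Ncam1, which were lower in induced cells, and Tagln, which was higher. With an added term for treatment by linear day, Vim and Tagln passed the threshold (adjusted p = 0.0324 and 0.0452), as did 145 genes in all. A fit of treatment by linear day called 0 of the 8, against 0% of all genes, and a fit of treatment by day 4 against days 3 and 5 called 0 of the 8, against 0% of all genes. Both of these had 1 residual degree of freedom, with 1322 and 109 genes at an unadjusted p under 0.05.

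**Figure D1:**
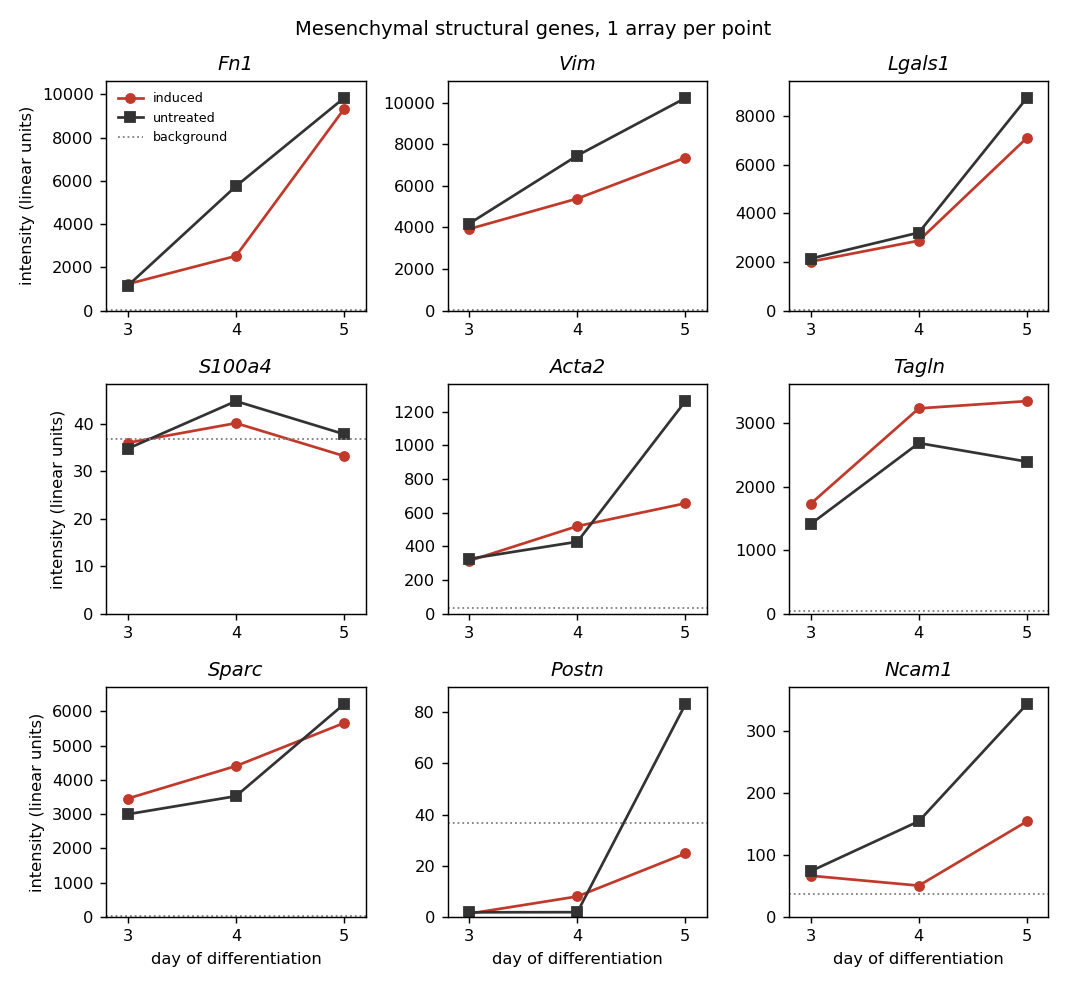
Intensity in linear units of each of the 9 genes by day of differentiation, in induced cells (red circles) and untreated cells (black squares), 1 array per point, with the background of 36.8 units dotted. Fn1 is apart on day 4 and together on day 5, Acta2 is apart on day 5, Tagln is higher in induced cells on all 3 days, and S100a4 stays at background.

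Fibronectin (Fn1, chr1:71585473-71653280 in GRCm38.p6) is the main glycoprotein of the early embryonic matrix, which integrins bind and on which mesoderm migrates. It had 1228, 2526 and 9313 units in induced cells on days 3, 4 and 5, against 1156, 5750 and 9826 units in untreated cells. The arrays of the 2 treatments were close on days 3 and 5, and only on day 4 did they part, with the induced array 2.25-fold lower on the log2(intensity + 50) scale (log2 difference -1.17). On days 3 and 5 the log2 differences were 0.08 and -0.08. Fn1 was the only one of the 8 at least 1.5-fold apart on day 4 and less than that on day 5, a pattern of 107 genes or 1.07% of those tested.

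The approach to the day 5 level was therefore of a different shape. By day 4 induced cells had covered 35.2% of their log2 increase from day 3 to day 5, and untreated cells 74.7%. From day 4 to day 5 the intensity was multiplied by 3.69 in induced cells and by 1.71 in untreated cells. The second probe set for Fn1 gave 398, 1277 and 3889 units in induced cells and 373, 3043 and 3286 units in untreated cells. It repeated the day 4 gap (log2 difference -1.22) and placed the induced array slightly above the untreated array on day 5 (0.24). Both probe sets read the same 6 RNA samples, so they do not serve as replicates.

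The rise of Fn1 over days passed the test at both steps from day 3, by 2.95 on the log2 scale to day 5 (95% interval 2.17 to 3.74, limma adjusted p = 0.00364) and by 1.64 to day 4 (adjusted p = 0.0439). The mean difference between treatments was -0.39 ± 0.68 (SD over 3 days, adjusted p = 0.649). For the departure of day 4 from days 3 and 5, the estimate was -1.17 (95% interval -1.50 to -0.84). Its unadjusted p of 4.8e-04 was the smallest of all genes tested, but the adjusted p was 0.9998, so the day 4 gap of Fn1 did not pass. In that fit a gene's own spread is only the gap between its day 3 and day 5 differences. The small p and narrow interval of Fn1 therefore largely restate that these 2 differences nearly agreed. Without day 4, the mean difference was 0.00316.

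**Figure D2:**
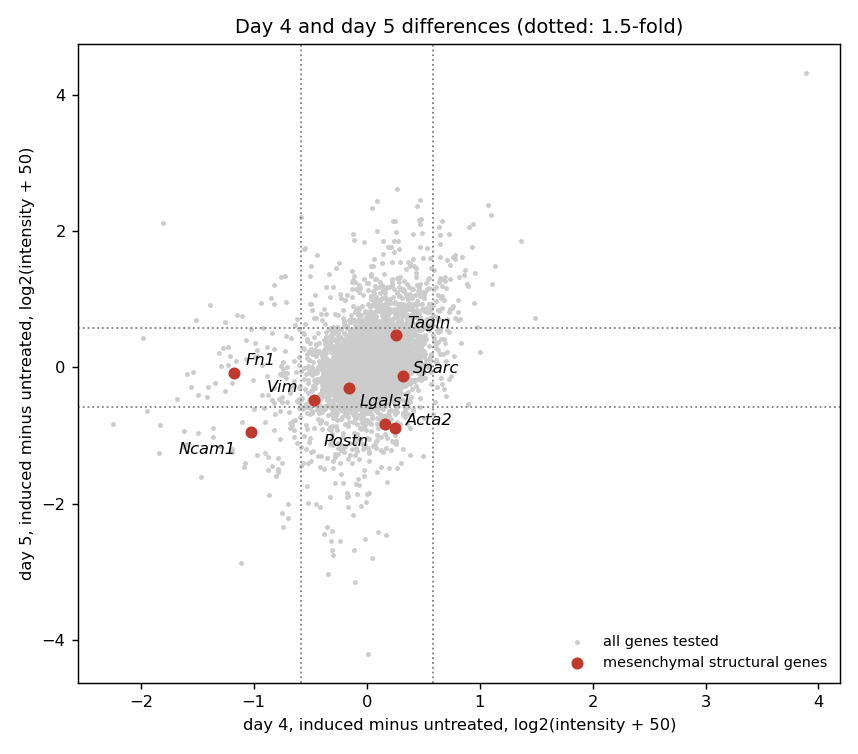
Induced minus untreated difference in log2(intensity + 50) on day 4 (horizontal) and day 5 (vertical) for all 9997 genes tested (grey) and the 8 mesenchymal structural genes tested (red), 1 array per treatment and day, with 1.5-fold dotted. Fn1 lies beyond the dotted line on day 4 and near 0 on day 5, Ncam1 lies beyond it on both days, and Acta2 and Postn only on day 5. For Postn only the untreated array of day 5 was above background.

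The 3 tested genes whose profile over the 6 arrays was most like that of Fn1, among 1565 genes with a range of at least 1 on the log2 scale, were Rftn1 (r = 0.998), Slit2 (r = 0.997) and Ints6l (r = 0.996). Rftn1, a lipid raft protein, had 61.9, 220 and 795 units in induced cells on days 3, 4 and 5, against 54.2, 494 and 907 units in untreated cells. In each of 3 gene lists, 1 gene had the pattern of Fn1 on days 4 and 5, against 1.07% of all genes tested. These were Mesp1 of 6 nascent mesoderm genes tested, Gata6 of 9 for parietal endoderm and Cdh2 of 7 cadherins and regulators of the mesenchymal transition. None of the 3 visceral endoderm genes tested had it, nor did any gene tested in the remaining lists. The 3 lists are named because each held such a gene, so they do not measure an excess over 1.07%. N-cadherin (Cdh2) had 894, 2608 and 6653 units in induced cells and 969, 5238 and 6003 units in untreated cells. The log2 differences on days 4 and 5 were -0.99 and 0.15 for Cdh2, -1.06 and 0.12 for Gata6, and -1.59 and -0.10 for Mesp1.

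Of the 7 nascent mesoderm genes measured, 6 were tested, and their summed intensity was 775, 5436 and 9965 units in induced cells and 1081, 9957 and 9156 units in untreated cells. On day 4, 4593 of the 9997 genes tested were lower in induced cells, and 1.39% were lower by at least 1.5-fold. All 6 nascent mesoderm genes were lower on that day, 4 of them by at least 1.5-fold. On day 5 they split: Mixl1 and Eomes, which carry much of the sum, were higher in induced cells (log2 differences 0.96 and 0.64), and Kdr and Pdgfra were lower (-0.82 and -0.88). The part of these cells in the Fn1 result was not tested.

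Vimentin (Vim, chr2:13574311-13582826), the intermediate filament of mesenchymal cells, had 3927, 5389 and 7356 units in induced cells and 4189, 7459 and 10225 units in untreated cells. The 2 arrays were close on day 3 and the induced array was lower on days 4 and 5, unlike Fn1, which had closed its gap by day 5. The log2 differences were -0.09, -0.47 and -0.47 on the 3 days, 1.38-fold lower on day 4 and 1.39-fold lower on day 5. Their mean was -0.34 ± 0.22 (SD over 3 days, 95% interval -0.56 to -0.13, adjusted p = 0.573). Vim rose by 1.09 from day 3 to day 5 (adjusted p = 0.00301).

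Vim had 3 probe sets, and the dimmer ones showed the larger differences. The brightest carries a suffix for sets that may also read other transcripts, and the part of this in its smaller differences was not tested. Where the brightest gave -0.47 on both days, the second gave -0.67 on day 4 and -0.74 on day 5, and the third gave -0.82 and -0.87. Both of these pass 1.5-fold on both days, so the call for Vim within a day depends on the probe set, while the direction does not. The 3 profiles were close (r of 0.999 with the brightest for each of the other 2, over 6 arrays). Dzip3, Efnb3 and Shmt2 were the genes most like Vim (r of 0.995 to 0.996).

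**Figure D3:**
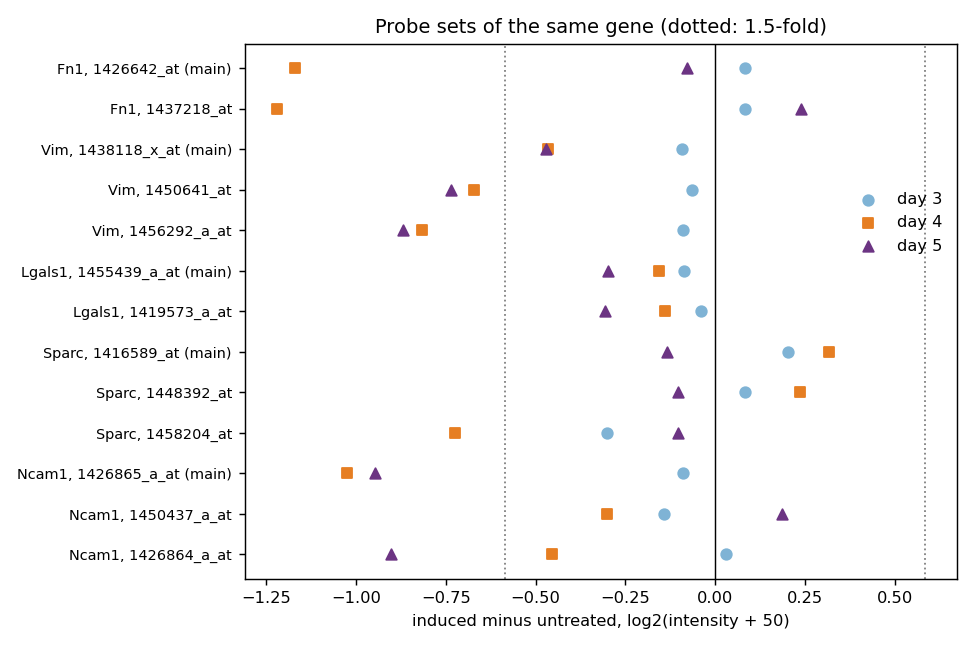
Induced minus untreated difference in log2(intensity + 50) on days 3, 4 and 5 for every probe set of Fn1, Vim, Lgals1, Sparc and Ncam1 that was above background on at least 1 array, with 1.5-fold dotted. The probe sets of Fn1, Vim and Lgals1 run in parallel, while 1 probe set of Sparc and 1 of Ncam1 depart from the brightest of their gene.

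Galectin-1 (Lgals1, chr15:78926725-78930465), a secreted lectin that binds fibronectin and laminin, had 2016, 2879 and 7109 units in induced cells and 2142, 3212 and 8751 units in untreated cells. It was a little lower in induced cells on each day, with log2 differences of -0.09, -0.16 and -0.30, and never reached 1.5-fold. The mean difference was -0.18 ± 0.11 (SD over 3 days, adjusted p = 0.573). Its rise had the narrowest interval of the 8: 1.90 from day 3 to day 5 (95% interval 1.74 to 2.06, adjusted p = 0.00131), with 1.36 of it between days 4 and 5 (adjusted p = 0.0205). Igf2, a fetal growth factor, and the fibrillar collagen gene Col5a1 were among the 3 genes most like it, with Cblb (r of 0.996 to 0.997).

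Neural cell adhesion molecule (Ncam1, chr9:49502129-49799393), which replaces cadherin contacts in some mesenchymal and neural cells, had 66.3, 50.3 and 154 units in induced cells and 73.7, 154 and 343 units in untreated cells. The induced array lagged from day 4, and its day 5 intensity equalled the untreated intensity of day 4 (ratio 0.998). Ncam1 was 2.04-fold lower on day 4 and 1.93-fold lower on day 5. By the brightest probe sets it was the only one of the 8 past 1.5-fold on both days. The mean difference was -0.69 ± 0.52 (SD over 3 days, 95% interval -1.21 to -0.16, adjusted p = 0.573). From day 3 to day 5 it rose by 1.24 (adjusted p = 0.0175).

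Ncam1 had 7 probe sets, of which 4 were never above background. One of the others followed the brightest (r = 0.967 over 6 arrays), with differences of -0.45 on day 4 and -0.90 on day 5, but was above background on 3 arrays only. The remaining one was above background on all 6 arrays, at 47.2 to 75.0 units, and gave -0.30 on day 4 and 0.19 on day 5. With that probe set the day 5 difference reversed and the rise from day 3 to day 5 was no longer called (0.16, adjusted p = 0.460). Fat4, Dmpk and Ap1m1 were the genes most like Ncam1 (r of 0.980 to 0.986).

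Smooth muscle actin (Acta2, chr19:34240336-34255585) and transgelin (Tagln, chr9:45929628-45936058) are both contractile genes driven by serum response factor in smooth muscle, and here they did not move alike. Acta2 had 314, 520 and 655 units in induced cells and 326, 427 and 1262 units in untreated cells. Its induced array was level with the untreated array on day 3, above it on day 4 and well below it on day 5. The log2 differences were -0.05, 0.26 and -0.90, and on day 5 Acta2 was 1.86-fold lower in induced cells. It rose from day 3 to day 5 by 1.38 (adjusted p = 0.0172).

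Tagln had 1734, 3236 and 3350 units in induced cells and 1414, 2689 and 2397 units in untreated cells. Of the 9997 genes tested, 1933 were higher in induced cells on all 3 days, and Tagln was the only such one of the 9. Its log2 differences were 0.29, 0.26 and 0.47. The mean was 0.34 ± 0.12 (SD over 3 days, 95% interval 0.19 to 0.50, unadjusted p = 0.00229, adjusted p = 0.573). Tagln rose early, by 0.89 between days 3 and 4 (adjusted p = 0.0170), and differed by -0.06 between days 4 and 5. Hence on day 5, where Acta2 was lower in induced cells, Tagln was 1.39-fold higher.

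A promoter window of Acta2 is shown because serum response factor binds CArG boxes (CC, 6 A or T bases, GG), which in this window carry a G or C in the core. Its 250 bases are given on the gene's strand, which is the minus strand (RefSeq, GRCm38.p6, chr19:34255374-34255623), with such boxes in capitals. The window ends at a transcript start at base 34255373, downstream of the start of the gene span given above, so 212 of the 250 bases lie inside that span.
Acta2: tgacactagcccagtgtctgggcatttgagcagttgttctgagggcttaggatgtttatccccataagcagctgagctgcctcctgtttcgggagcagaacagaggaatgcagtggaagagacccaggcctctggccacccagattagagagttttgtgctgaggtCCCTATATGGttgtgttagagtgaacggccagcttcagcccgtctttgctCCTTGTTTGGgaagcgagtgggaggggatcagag
The 2 boxes, CCCTATATGG and CCTTGTTTGG, begin 84 and 34 bases before that transcript start, and each has 1 G or C in its core. A box of that kind, which reads as one on both strands, was in 7.24% of the 32851 upstream windows of 250 bases, and a CArG box by name, with no G or C in its core, was in 1.47%. Windows were found for 5 of the 9 genes (Vim, S100a4, Acta2, Sparc and Postn, 6 windows in all), and neither kind of box was in the other 4. The E-box CACCTG, to which Zeb and Snail proteins bind, was in 17.2% of all windows on either strand and in none of those 6. Fn1, Lgals1, Tagln and Ncam1 were not matched.

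Of the 17 further genes listed for serum response factor and the contractile apparatus, 15 were tested. From day 3 to day 5, 11 rose and 1 fell (Myl9, a myosin light chain), against the 20.6% and 19.2% of all genes given above. None of the 15 was 1.5-fold apart on any day, and the median day 5 difference was 0.03, close to 0.02 for all genes tested. The 4 with the largest mean difference included Tagln2, the closest relative of Tagln, with log2 differences of 0.14, 0.27 and 0.41. Cnn2, a calponin, had differences of 0.34, 0.25 and -0.06.

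The other actins are set beside Acta2. Cytoplasmic actins Actb and Actg1 stood at 13160 to 14018 units on all arrays and differed between treatments by at most 0.07 on the log2 scale. Skeletal Acta1 had 333, 588 and 805 units in induced cells and 322, 395 and 488 units in untreated cells. Cardiac Actc1 had 139, 244 and 177 units in induced cells and 135, 500 and 347 units in untreated cells. Thus on day 5 Acta1 was higher in induced cells while Acta2 and Actc1 were lower. The Acta2 probe set carries the suffix for sets that may read more than 1 transcript of a family, and the other 2 probe sets of Acta2 were below background on every array, so a share from another actin was not tested.

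The smooth muscle genes Myh11, Myocd and Des were near background: Myh11 had 2.86 to 12.3 units on the 6 arrays. Calponin 1 (Cnn1) fell from day 3 to day 5, and had 409, 332 and 112 units in induced cells and 312, 252 and 114 units in untreated cells. Acta2 and Tagln were thus measured in cultures where the myosin of mature smooth muscle was at background. Abtb2, Vegfa and P4ha1 were the genes most like Acta2 (r of 0.991 to 0.995), and Zhx2, Ehbp1 and Nrep were most like Tagln (r of 0.979 to 0.982).

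Osteonectin (Sparc, chr11:55394159-55420080) is a matricellular protein that binds collagen and is abundant in parietal endoderm and in mesenchyme. It had 3455, 4403 and 5657 units in induced cells and 2997, 3523 and 6208 units in untreated cells. The induced array was higher on days 3 and 4 and lower on day 5, with log2 differences of 0.20, 0.32 and -0.13. Sparc rose from day 3 to day 5 by 0.87 (adjusted p = 0.00547), and its mean difference between treatments was 0.13 ± 0.23 (SD over 3 days, adjusted p = 0.668).

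The second probe set of Sparc agreed in direction on each day (0.08, 0.24 and -0.10). The third, at 66.1 to 154 units, ran the other way over the 6 arrays (r = -0.721) and gave -0.73 on day 4, and averaging it in with the others turned the differences on days 3 and 4 to -0.01 and -0.06 and the mean difference to -0.06. Stat3, Dnajb4 and Mgat4b were the genes most like Sparc (r of 0.986 to 0.991). The 10 parietal endoderm markers, which include laminin and type IV collagen chains, summed over the 9 tested to 5703, 7970 and 11828 units in induced cells and 5568, 7692 and 11711 units in untreated cells. The bright laminin and collagen genes carry that sum, which was close between treatments. From day 3 to day 5, 8 of the 9 rose, against 20.6% of all genes tested. Plat, 1 of those 8, passed the filter only through its day 5 arrays, so its rise follows from the filter. The regulators of the list did differ: Sox7 was 3.72-fold and Gata4 1.54-fold lower in induced cells on day 5, and Gata6 was 2.09-fold lower on day 4.

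Periostin (Postn, chr3:54359267-54391041) is a matricellular protein of fibroblasts and heart valves, and came late. It had 1.23, 7.96 and 24.8 units in induced cells and 1.75, 1.81 and 83.2 units in untreated cells. Only the untreated array of day 5 was above background, so the log2 difference of -0.83 on that day sets a signal against a value with no level of its own. The rise by 0.95 from day 3 to day 5 (adjusted p = 0.0442) rests on that array, through which Postn passed the filter, and on the pseudocount. It was not called under 4 alternatives: a pseudocount of 100 (0.57, adjusted p = 0.0513), the mean of all probe sets (0.0514), no intensity trend (0.0521) and without day 4 (0.0637). Chsy3, Nfxl1 and Jcad were the genes most like it (r of 0.994 to 0.995), a likeness that rests on the same array.

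S100a4 (chr3:90603770-90606045), a calcium-binding protein known as a fibroblast marker, had 36.0, 40.1 and 33.2 units in induced cells and 34.8, 44.7 and 37.8 units in untreated cells. These lie on both sides of the background of 36.8 units, with 3 arrays above it, and no day separated the treatments. Of the fibroblast markers, Dcn, Lum, Thy1, Fap and Col3a1 did not pass the filter. The 5 that did summed to 390, 420 and 664 units in induced cells and 421, 606 and 2728 units in untreated cells. Col1a1 had 5.78, 13.9 and 89.7 units in induced cells and 2.22, 19.3 and 577 units in untreated cells. This collagen of fibroblasts was thus below background on days 3 and 4 in both treatments. On day 5, Col1a1, Pdgfrb and Mmp2 were at least 1.5-fold lower in induced cells, against 3.51% of all genes tested, and Col1a2 was not. Twist2 was lower too, but passed the filter only through its untreated array of day 5, so its difference is not counted. Acta2 and Ncam1 were also lower by that fold on day 5, and the part of fibroblasts in those results was not tested.

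Read side by side, the days gave different sets. The 7 tested genes other than Postn were counted by their brightest probe sets, which matters for Vim. On day 3 none of them was at least 1.5-fold lower in induced cells (0.200% of all genes tested). On day 4, 2 were (Fn1 and Ncam1, against 1.39%). On day 5, 2 were (Acta2 and Ncam1, against 3.51%), and none was higher by that fold (5.24%). Vim, Lgals1 and Ncam1 were lower in induced cells on all 3 days, as were 14.3% of all genes tested. The median difference of the 7 was -0.05, -0.16 and -0.30 on days 3, 4 and 5, against 0.00, 0.02 and 0.02 over all genes tested.

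**Figure D4:**
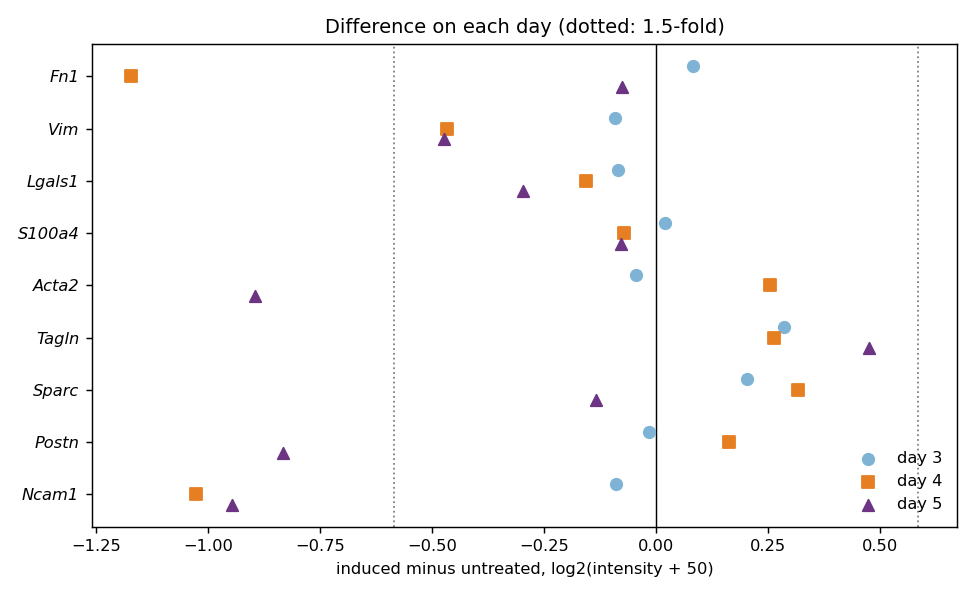
Induced minus untreated difference in log2(intensity + 50) for each of the 9 genes on days 3, 4 and 5, from 1 array per treatment and day, with 1.5-fold dotted. Day 4 carries the difference of Fn1, days 4 and 5 that of Ncam1 and Vim, and day 5 that of Acta2. Tagln lies to the right of 0 on all 3 days. Postn is also apart on day 5, but only its untreated array of that day was above background.

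The 9 profiles also differed among themselves. Over the 6 arrays, and leaving out Postn and S100a4, Fn1 and Vim (r = 0.961) were the most alike, while Tagln was farthest from Ncam1 (r = 0.242). These coefficients share the rise over days and have 6 points each. The epithelial genes stood apart in the other direction. The 8 summed to 19312, 25586 and 32944 units in induced cells and 17067, 19268 and 20424 units in untreated cells. Of the 8, 7 were higher in induced cells on all 3 days, as were 1933 of the 9997 genes tested. The keratins carry the rise of that sum over days. In untreated cells Krt8, Krt18 and Krt19 went up from day 3 to day 5 (Krt8 from 767 to 7013 units). Over the same days untreated Cdh1, Epcam, Cldn6, Cldn7 and Esrp1 went down (Cdh1 from 7232 to 3963 units). The 7 pluripotent cell markers summed to 27089, 24030 and 17477 units in induced cells and 27598, 23205 and 10327 units in untreated cells. Both sums stood higher in induced cells on day 5, when Vim, Lgals1, Acta2 and Ncam1 were lower, and their part in those differences was not tested.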

How the data were processed

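RNA from 6 samples of A2.miR200c cells (induced or untreated, days 3, 4 and 5) was hybridised to Affymetrix MOE430 2.0 arrays. The authors normalized and modelled the arrays in dChip, and the deposited values are linear intensities, 1 for each of 45037 probe sets. The dChip version and detection calls are not given in the sources used here. Of the probe sets, 34945 had 1 gene symbol in the platform annotation, 932 had several and 9160 none. The last 2 kinds were left out.

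Intensities were taken as log2(intensity + 50), since the deposited values are not on a log2 scale, and this damps the folds of dim genes. A gene entered the tests when its brightest array reached the median over all gene values (80.1 units). Tests used limma 3.58.1 in R 4.3.3 (lmFit, eBayes with trend, Benjamini-Hochberg at 0.05), with 2 residual degrees of freedom for treatment plus day and 1 for treatment by day. With 1 array per treatment and day, differences within a day have no test and are read against 1.5-fold. The number of arrays limits the precision. Background was the 95th percentile of 77 receptor genes. The scripts were tested on simulated data. Alternatives were pseudocounts of 10 and 100, no filter, the mean of all probe sets, quantile normalization, no trend, an added treatment by linear day term, each day left out, other folds and, chosen after seeing the data, the next brightest probe set.

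Named genes were all 9 genes, the 3 most alike to each, up to 4 from each list and Hprt, Zeb1 and Zeb2. The genes and lists were chosen with earlier results of these data known. Others singled out (such as Gata6, Mesp1, Myl9, Myh11 and the actins) were chosen after their values were seen. Sequences and coordinates are from RefSeq, GRCm38.p6, and coordinates are those of the genes, not of the probes.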

Additional observations from a re-analysis of the deposited data

Results flagged for a closer look

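For 2 genes the difference between treatments pointed one way on day 4 and the other way on day 5, with all 4 arrays above background. The log2 difference, induced minus untreated, was 0.26 and then -0.90 for Acta2, and 0.32 and then -0.13 for Sparc. With the mean of all probe sets, Sparc gave -0.06 and then -0.11, so its change of direction was lost. With 1 array per treatment and day, the difference between days was not tested for itself. In the fit of treatment by linear day the adjusted p was 0.418 for Acta2 and 0.427 for Sparc.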

How the results depend on the processing

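Day was a term in every fit, so the induced and untreated arrays of a day were already compared as pairs, and the labels number no replicates. A day could not be left out of the fits of treatment by linear day or by day 4, which had 1 residual degree of freedom. Precision is limited by 6 arrays, and Postn, S100a4 and most further probe sets of Ncam1 by signal near background.

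Over all genes, 0 were called for the mean difference between treatments, against 145 with treatment by linear day added and 2 without day 5. For treatment by linear day 0 were called, and 11 with a pseudocount of 100. Between days 3 and 4, 898 were called, against 597 with no filter, 569 with the mean of all probe sets, 554 with no trend, 2319 with treatment by linear day added and 2958 without day 5. From day 4 to day 5, 613 were called, against 258 with the mean of all probe sets, 170 with no trend, 2220 with the added term and 241 without day 3. From day 3 to day 5, 3984 were called, and 2454 without day 4. Genes at least 1.5-fold apart numbered 29 on day 3 and 242 on day 4. A pseudocount of 10 gave 147 and 445, a pseudocount of 100 gave 11 and 159, the mean of all probe sets gave 11 and 150, and 2-fold gave 2 and 58, with 349 against 875 on day 5. The 107 genes apart on day 4 and not on day 5 became 198 with a pseudocount of 10, 69 with one of 100, 67 with the mean of all probe sets, 24 at 2-fold on day 4 and 46 with a limit of 1.2-fold on day 5. The causes were not tested.

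Of 398 re-estimates of the tested values of the 8 genes, 367 kept their direction and side of the threshold. The mean difference between treatments reversed for Fn1 without day 4 (0.00316), for Acta2 (0.10) and Postn (0.0736) without day 5, and for Sparc with the mean of all probe sets (-0.0583). With the next brightest probe set, treatment by linear day reversed for Fn1 (0.0785) and Ncam1 (0.16), as did the day 5 difference of Ncam1 (0.19). Differences under 1.5-fold that changed sign were those of Fn1 on day 5 (0.24 with that probe set, 0.08 with the mean of all probe sets) and of Sparc on days 3 and 4 with the mean of all probe sets (-0.01 and -0.06). The rise of Fn1 from day 3 to day 4 was not called with no filter (adjusted p = 0.0501), the mean of all probe sets (0.0532) or no trend (0.0660). Fn1 kept its day 4 difference between -1.22 and -1.16 under every alternative run.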

Other observations

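Several relatives of the 9 genes were higher in induced cells on day 5. Among 5 S100 genes tested, S100a6, a calcium-binding protein of proliferating and epithelial cells, had 135, 554 and 1615 units in induced cells on days 3, 4 and 5, against 99.7, 305 and 495 units in untreated cells. It rose from day 3 to day 5, as did S100a10, 2 of the 5, against 20.6% of all genes tested. The galectin Lgals3 had 386, 1208 and 2011 units in induced cells and 369, 1138 and 874 units in untreated cells, so the treatments parted only on day 5, where its log2 difference was 1.16 and that of Lgals1 was -0.30.

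Of 6 other matricellular genes tested, 3 were at least 1.5-fold higher in induced cells on day 5 (Ctgf, Cyr61 and Thbs1), against 5.24% of all genes tested. Tgfbi was lower by that fold, but passed the filter only through its untreated array of day 5, so its difference is not counted. Ctgf had 2907, 3073 and 2223 units in induced cells, against 2655, 1891 and 1091 units in untreated cells. Tgfbi had 23.9, 20.8 and 45.0 units in induced cells, against 23.3, 30.0 and 290 units in untreated cells. Of 10 fibronectin receptor and matrix partner genes tested, 5 rose from day 3 to day 5, against 20.6% of all genes tested. Among those 5, Fbln2 and Fbn2 passed the filter only through day 5 arrays. On day 5, Fbln2 and Fbn2 were at least 1.5-fold lower in induced cells, against 3.51% of all genes tested. Itga4 was lower by that fold too, but passed the filter only through its untreated array of day 5 and is not counted. The fibronectin-binding fibulin Fbln2 had 22.4, 14.6 and 89.0 units in induced cells and 15.6, 38.0 and 506 units in untreated cells. The receptor subunits Itgb1 and Itgav differed by 0.24 and 0.00 on day 5. Of 4 genes tested around Ncam1, St8sia4, which adds polysialic acid to it, had 42.4, 75.6 and 94.7 units in induced cells and 35.4, 40.7 and 37.1 units in untreated cells. St8sia4 passed the filter only through its induced array of day 5.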
